A study of Homo sapiens with 4 samples.

Results

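Cells make cholesterol and fatty acids from the same starting material, cytosolic acetyl-CoA, and the transcription of both sets of enzymes is set by the sterol regulatory element-binding proteins (SREBPs). The expression of 35 genes of this system was described in Ishikawa cells, an established line from an endometrial adenocarcinoma, with and without knockdown of *CDYL*, a corepressor of transcription with a chromodomain. The genes came from a list of sterol and fatty acid synthesis, uptake and export genes, with no threshold on a measured value but with earlier results of these data known, and all 35 were found among the 58522 identifiers in the expression table. The list held 18 enzymes of the sterol branch, 7 of the fatty acid branch, 5 sterol-sensing regulators and 5 transport and export genes.

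RNA-seq was run on 2 libraries of cells given a negative control shRNA and 2 libraries of cells given an shRNA against *CDYL* (*CDYL*-sh). All 4 libraries came from the same cell line. The *CDYL* shRNA was expressed from a U6 promoter on a plasmid that also carries ZsGreen and puromycin resistance, and transduced cells were selected with puromycin. The vector of the negative control shRNA is not given in the sources used here. The labels do not say which hairpin each *CDYL*-sh library carries or whether the libraries came from separate cultures. Their titles end in sh1 and sh2, and the paper gives its hairpins names of the same form. The number may thus stand for a hairpin or for a replicate. The p-values then measure only the spread between these libraries, which may be technical or, in *CDYL*-sh, a difference between hairpins. The text calls them control 1 and 2 and *CDYL*-sh 1 and 2.

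Total counts were 27688447 and 26981051 in control and 27451007 and 22341852 in *CDYL*-sh. *CDYL* itself was 50.4 and 53 CPM (counts scaled to a fixed library size, by TMM) in control and 11.4 and 9.70 in *CDYL*-sh (log2 fold change -2.28, SE 0.13, edgeR adjusted p = 4.26e-09), which left 20.6% of the control level. Pearson correlations of log2 CPM were 0.9929 and 0.9938 within the groups and 0.9788 to 0.9837 between them. The cells carried the epithelial label's markers, with all 10 detected and *EPCAM* between 270.73 and 330.4 FPKM (fragments scaled by gene length and depth). Of these 10, 4 were higher in *CDYL*-sh (*KRT19*, *KRT7*, *CLDN4* and *CLDN3*, log2 fold changes 0.44 to 0.70). Another, *KRT18*, was lower (-0.34) and 5 did not pass the edgeR test. Of all genes tested, 13.6% were called higher and 12.1% lower. Summed FPKM of the epithelial list was 2713 and 2967 in control against 2786 and 2913 in *CDYL*-sh. Of 8 stromal fibroblast markers, *COL3A1* and *DCN* were listed at 0 in all libraries, while *COL1A1* was 4.3 and 4.05 FPKM in control against 1.69 and 3.13 in *CDYL*-sh (log2 fold change -0.82, edgeR adjusted p = 0.00206), and the list summed to 6.99 and 6.57 FPKM against 4.46 and 4.86. Of 6 leukocyte markers, *CD3E* and *MS4A1* were listed at 0 and *PTPRC* reached at most 0.01 FPKM. Summed FPKM of the leukocyte list was 5.06 and 7.36 in control against 13.79 and 11.47 in *CDYL*-sh, nearly all from *CD68*, a lysosomal membrane protein. *CD68*, the only leukocyte marker tested, was called higher (log2 fold change 1.0, edgeR adjusted p = 0.000567). Summed FPKM of 6 endothelial markers was 0.98 and 1.15 against 2.12 and 2.08. Of the 4 that were tested, *PECAM1* was called higher (log2 fold change 1.65, edgeR adjusted p = 0.000138) and 3 did not pass. The part of these marker differences in the results below was not tested.

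In the sterol branch, acetyl-CoA is built up through mevalonate to isoprenoid units, which are joined to squalene, closed to lanosterol and trimmed to cholesterol in the endoplasmic reticulum. In the fatty acid branch, citrate is cleaved to acetyl-CoA, which is carboxylated and polymerised to palmitate, and elongases and desaturases then modify the chain. When sterols are scarce, *SCAP* escorts the SREBPs to the Golgi for cleavage, and the INSIG proteins hold the complex back when sterols are plentiful. The product of *SREBF2* acts mainly on sterol genes and that of *SREBF1* mainly on fatty acid genes, while oxysterol-bound liver X receptors (LXR) raise sterol export genes and *SREBF1*.

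Promoters of these genes classically hold a sterol regulatory element, which the SREBPs bind, next to CCAAT boxes, which the cofactor NF-Y binds. RefSeq promoter sequence of GRCh38.p14 was matched for 30 of the 35 genes, and the 250 bases before the start were searched on both strands. *SQLE*, *FASN*, *ABCG1*, *ACAT2* and *FDFT1* had no entry. 5 promoters are shown because they set the strongest changes in the data beside genes without a call, in lower case with motif matches in capitals. *SCD* (chr10:100346983-100347232, plus strand) and *ABCA1* (chr9:104928156-104928405, minus strand) had the largest log2 fold changes of the 34 tested genes of the set. *INSIG2* (chr2:118088221-118088451, plus strand) also rose. *SREBF2* (chr22:41832855-41833104, plus strand) and *MSMO1* (chr4:165327419-165327666, plus strand) did not pass the test. Capitals mark CCAAT or its reverse complement ATTGG, the sterol regulatory element core TCACNCCAC, and the E-box CACGTG.
SCD: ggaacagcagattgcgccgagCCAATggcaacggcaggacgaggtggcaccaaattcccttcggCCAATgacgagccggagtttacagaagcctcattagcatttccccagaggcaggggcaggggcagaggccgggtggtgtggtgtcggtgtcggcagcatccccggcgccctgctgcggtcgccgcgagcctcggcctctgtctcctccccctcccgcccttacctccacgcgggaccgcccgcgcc
ABCA1: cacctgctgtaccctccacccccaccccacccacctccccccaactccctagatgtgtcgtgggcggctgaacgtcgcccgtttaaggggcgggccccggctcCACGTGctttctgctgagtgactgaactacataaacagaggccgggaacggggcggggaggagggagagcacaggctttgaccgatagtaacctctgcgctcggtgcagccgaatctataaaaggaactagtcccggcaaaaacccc
INSIG2: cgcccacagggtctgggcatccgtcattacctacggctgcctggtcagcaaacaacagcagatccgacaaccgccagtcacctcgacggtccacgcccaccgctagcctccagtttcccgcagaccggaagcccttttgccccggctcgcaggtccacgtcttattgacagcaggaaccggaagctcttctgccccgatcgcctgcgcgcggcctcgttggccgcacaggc
SREBF2: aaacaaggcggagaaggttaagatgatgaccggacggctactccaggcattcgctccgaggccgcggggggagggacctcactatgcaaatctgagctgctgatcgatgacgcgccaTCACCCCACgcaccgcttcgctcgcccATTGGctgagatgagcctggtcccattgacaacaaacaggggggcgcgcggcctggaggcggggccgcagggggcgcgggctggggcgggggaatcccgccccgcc
MSMO1: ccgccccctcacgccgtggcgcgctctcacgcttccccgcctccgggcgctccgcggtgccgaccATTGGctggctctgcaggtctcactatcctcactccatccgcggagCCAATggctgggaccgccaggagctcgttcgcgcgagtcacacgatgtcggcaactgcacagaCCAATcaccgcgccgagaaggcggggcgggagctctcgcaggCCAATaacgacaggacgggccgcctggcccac
An exact match to the sterol regulatory element core stood in 1 of the 30 promoters, that of *SREBF2*, 133 bases before the start. The share was 0.875% of all 27305 promoters. Elements with other letters or beyond the 250 bases were not sought, so the other promoters may still hold one. CCAAT stood in 18 of the 30 against 33.0% of all promoters. *MSMO1* had 4 matches, *SCD* had 2, at 229 and 186 bases before the start, and *INSIG2* had no match to any searched motif. By branch, 12 of 15 sterol enzymes, 2 of 6 fatty acid genes (*ACLY* and *SCD*) and 4 of 9 regulator and transport genes held CCAAT. Among the genes that rose with *CDYL* knockdown 1 of 6 held it (*SCD*), and among those that did not pass the test 16 of 23. *ACLY*, which fell, also held it. The windows of *ACLY* and of *ELOVL6*, which rose, lay inside their genes. All 12 sterol enzymes with CCAAT were among those 16, and a link between CCAAT and the calls was not tested. The windows follow RefSeq starts. That of *IDI1* (chr10:1056705-1056954, minus strand) lay upstream of the gene in GENCODE (1039152 to 1049119). Those of *MVK*, *CYP51A1*, *DHCR7*, *SCAP*, *NPC2*, *ACLY*, *ELOVL6*, *FADS1* and *FADS2* lay wholly inside their genes in GENCODE. Several others lay partly inside. *MVK*, *DHCR7*, *NPC2* and *ACLY* counted as with CCAAT, and *IDI1*, *CYP51A1*, *SCAP*, *ELOVL6*, *FADS1* and *FADS2* as without. The E-box stood in the promoters of *ABCA1*, *INSIG1*, *SC5D* and *SCAP*, and in 6.49% of all promoters. The matches of *INSIG1* and *SCAP* lay inside the gene in GENCODE. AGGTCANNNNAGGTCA, a perfect form of the repeat bound by LXR, was in none of the 30 and in 0.0146% of all promoters. Imperfect forms of the repeat were not searched, so this does not show that *ABCA1* or any other gene lacks an LXR site. A match is a description of these letters and not a bound site.

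The whole system was expressed in control cells except for the sterol exporters. On the FPKM scale, which is per length, the highest level in control was that of *EBP*, a sterol isomerase, at 341 ± 4.99 FPKM (SD, n = 2). It was followed by the lysosomal cholesterol-binding protein *NPC2* (274 ± 19.3), the farnesyl diphosphate synthase *FDPS* (238 ± 4.55), fatty acid synthase *FASN* (170 ± 6.29) and squalene synthase *FDFT1* (167 ± 0.629). *FASN* and *FDFT1* did not differ beyond their spread, and the other neighbours in this order did. At the low end were *INSIG2* (2.14 ± 0.269 FPKM), and the cholesterol exporters *ABCA1* (0.15 ± 0.113) and *ABCG1* (0.13 ± 0.0849), whose ranges overlapped each other. *NPC2* and *EBP* had short lengths in the table. The length implied by count and FPKM averaged 312 bases for *NPC2*, 38.0% of its canonical transcript, and 514 bases for *EBP*, 45.7% of its own. By CPM per kilobase of canonical transcript the order in control was *EBP*, *FDPS*, *FDFT1*, *NPC2* and *FASN*.

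**Figure D1:**
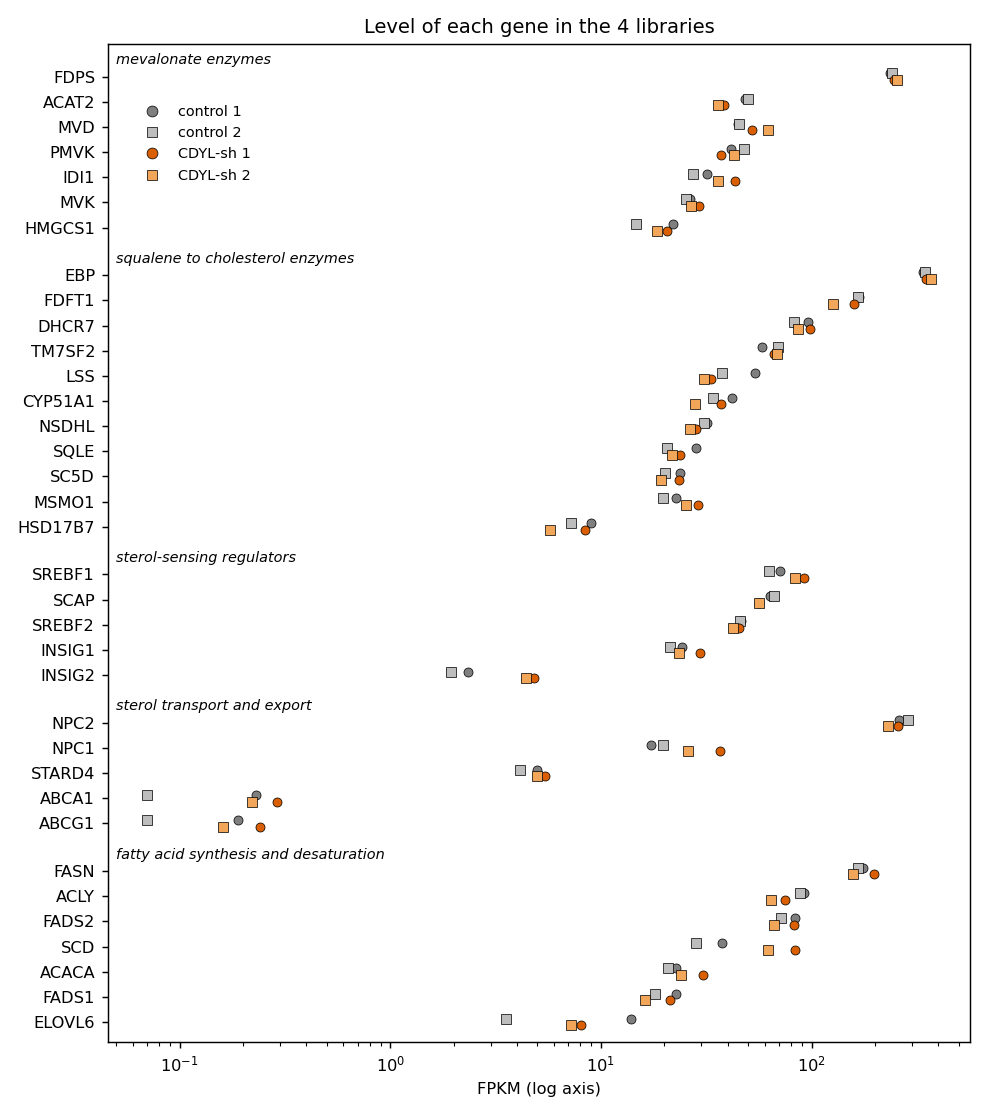
FPKM (log axis) of the 35 genes in each library, 1 point per library, grouped by role and ordered by control mean. Levels in control run from 341 FPKM for *EBP* to 0.13 for *ABCG1*, and the *CDYL*-sh points lie clearly to the right of control for *SCD* and *INSIG2*.

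In *CDYL*-sh cells a few of these genes changed and most of the enzymes gave no call. In bulk RNA, fewer cells with a transcript and less of it per cell cannot be told apart. With edgeR's quasi-likelihood test (Benjamini-Hochberg over 16158 genes, threshold 0.05), 34 of the 35 genes were tested. 6 rose (*IDI1*, *INSIG2*, *SREBF1*, *ABCA1*, *SCD* and *ELOVL6*), 2 fell (*ACAT2* and *ACLY*) and 26 did not pass. The background was 25.7% of all tested genes called, 13.6% higher and 12.1% lower, against 23.5% of the 34, so the share called was near that of all genes. The median log2 fold change was -0.01 over the 34 and 0.01 over all genes. CPM of the groups did not overlap for 20 of the 34, against 64.3% of all genes. *ABCG1* was too low to be tested, with 8 and 2 counts in control and 16 and 5 in *CDYL*-sh. On FPKM values tested with limma, *SCD* alone of 33 genes passed, against 2.96% of all genes with a pseudocount of 1.

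**Figure D2:**
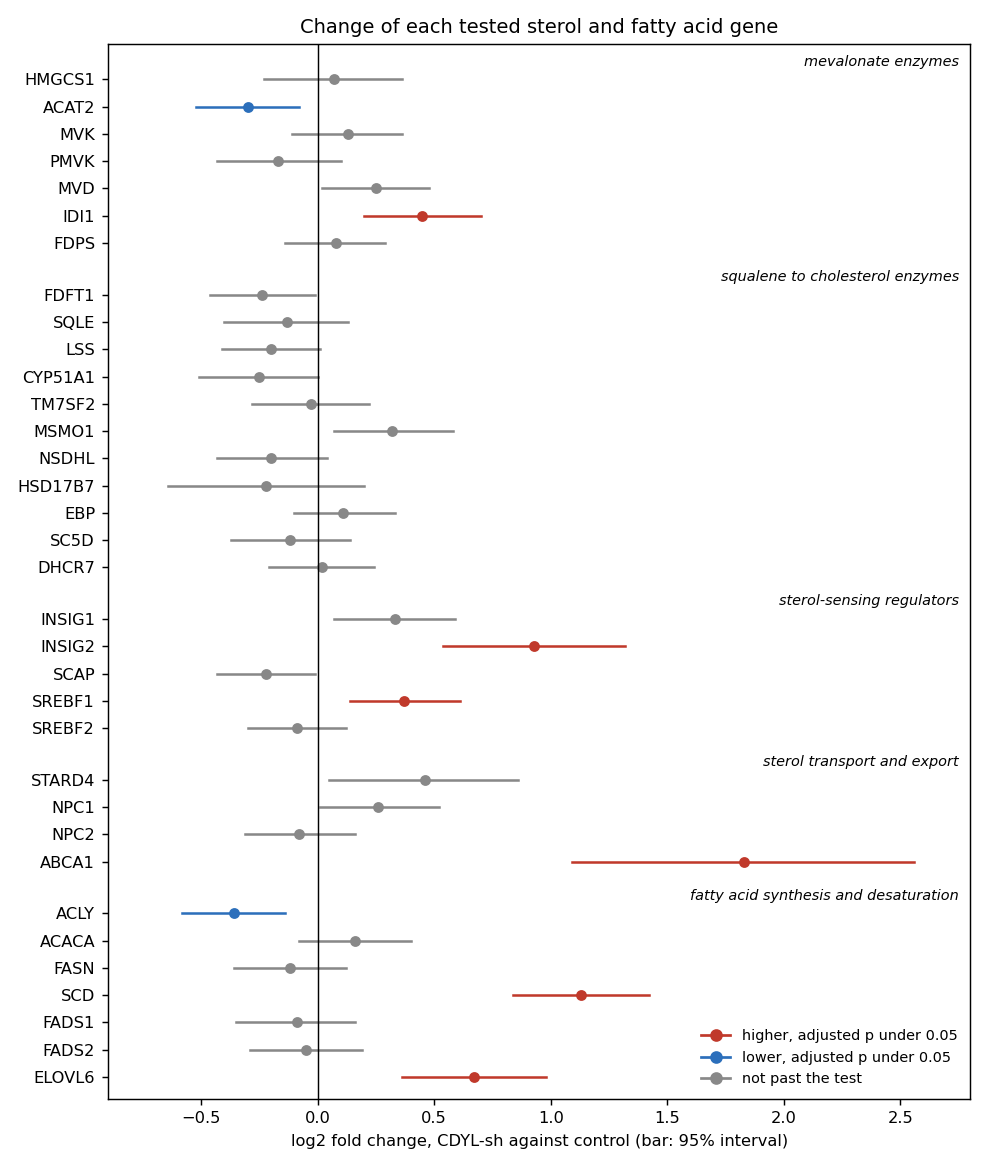
Log2 fold change (*CDYL*-sh against control) with its 95% interval for the 34 tested genes by role, with red for genes that rose, blue for genes that fell and grey for the rest. *ABCA1* at 1.83 and *SCD* at 1.13 lie farthest from 0, and the squalene to cholesterol enzymes all lie between -0.25 and 0.32.

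Mevalonate enzymes had 1 gene higher, 1 lower and 5 not past the test among 7, with a median log2 fold change of 0.08. *IDI1*, which interconverts the isoprenoid building blocks, was 50.3 and 41.8 CPM in control and 66.7 and 59.1 CPM in *CDYL*-sh. Every *CDYL*-sh value was above both control values, and *IDI1* rose by a log2 fold change of 0.45 (SE 0.12, 95% interval 0.20 to 0.70, adjusted p = 0.0108). The call was lost without control 2 (0.32, adjusted p = 0.0873) and without *CDYL*-sh 1 (0.34, adjusted p = 0.115). *ACAT2*, the cytosolic thiolase that joins acetyl-CoA units at the head of the pathway, was 94.3 and 96.4 CPM in control and 79.6 and 75.2 CPM in *CDYL*-sh. The groups did not overlap and *ACAT2* fell by 0.30 on the log2 scale (SE 0.10, 95% interval -0.52 to -0.08, adjusted p = 0.0409). That call was lost in 8 of 16 alternatives, including the fits without control 1 (-0.33, adjusted p = 0.103), control 2 (-0.28, 0.13), *CDYL*-sh 1 (-0.36, 0.0767) and *CDYL*-sh 2 (-0.26, 0.278). *ACAT2* shares 454 exonic bases on the opposite strand with *TCP1*, a chaperonin subunit (log2 fold change 0.08, adjusted p = 0.619), and no source says whether reads were counted by strand.

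The other mevalonate enzymes did not pass. *HMGCS1*, which makes HMG-CoA, was 65.2 and 45.4 CPM in control and 61 and 54.8 CPM in *CDYL*-sh, with control 1 above both *CDYL*-sh libraries and control 2 below them. The decarboxylase *MVD* was 54.9 and 56.7 CPM against 63.4 and 69.5 CPM, without overlap (log2 fold change 0.25, SE 0.11, adjusted p = 0.1). *MVK* and *PMVK*, the kinases of mevalonate and phosphomevalonate, had log2 fold changes of 0.13 and -0.17 (adjusted p = 0.445 and 0.363), and *FDPS*, which makes farnesyl diphosphate, had 0.08 (adjusted p = 0.631).

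None of the 11 enzymes from squalene to cholesterol passed the test in edgeR, and their median log2 fold change was -0.13. *MSMO1*, a methylsterol monooxygenase, was 42.5 and 36.7 CPM in control and 52.9 and 46.3 CPM in *CDYL*-sh. Its groups did not overlap, and it was just short of the threshold (log2 fold change 0.32, SE 0.12, adjusted p = 0.0573). *FDFT1*, the branch's committed enzyme, was 273 and 277 CPM against 252 and 215 CPM (-0.24, SE 0.11, adjusted p = 0.12). The lanosterol synthase *LSS* was 155 and 146 CPM against 133 and 129 CPM (-0.20, SE 0.10, adjusted p = 0.16). The demethylase *CYP51A1* was 115 and 97.2 CPM against 99.2 and 78.8 CPM, and its groups overlapped (-0.25, SE 0.12, adjusted p = 0.137). The other enzymes, *SQLE*, *TM7SF2*, *NSDHL*, *HSD17B7*, *EBP*, *SC5D* and *DHCR7*, had log2 fold changes from -0.22 to 0.11. The final reductase *DHCR7* was 213 and 190 CPM in control and 212 and 196 CPM in *CDYL*-sh, with a 95% interval of -0.21 to 0.24. *CYP51A1* passed as lower in 4 of 16 alternatives, among them the fits without control 2 (-0.37, adjusted p = 0.0371) and without *CDYL*-sh 1 (-0.45, 0.0203). *MSMO1* passed as higher in 3, *SC5D* as lower in 1 (GC and length offsets), and *FDFT1* and *LSS* as lower in 1 each (the fit with library number as a term, adjusted p = 0.0172 and 0.027). *HSD17B7* has a near-identical pseudogene, so its value is uncertain.

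The 7 fatty acid genes had 2 higher, 1 lower and 4 not past the test. *SCD*, the desaturase that makes oleate from stearate (chromosome 10, 100347233 to 100364826, plus strand), was 189 and 146 CPM in control and 414 and 318 CPM in *CDYL*-sh. Both *CDYL*-sh libraries stood far above both control libraries, and *SCD* rose 2.19-fold (log2 fold change 1.13, SE 0.14, 95% interval 0.84 to 1.42, adjusted p = 1.64e-05). It passed in all 16 alternatives, with log2 fold changes of 0.91 to 1.32. *SCD*'s FPKM went from 32.9 ± 6.49 to 72.8 ± 15.2 (SD, n = 2).

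*ELOVL6*, the elongase that turns palmitate into stearate and so feeds *SCD*, was 18.7 and 13.9 CPM in control and 26.4 and 25.6 CPM in *CDYL*-sh. The groups did not overlap and *ELOVL6* rose 1.59-fold (log2 fold change 0.67, SE 0.15, 95% interval 0.36 to 0.98, adjusted p = 0.00286). *ACLY*, which cleaves citrate to cytosolic acetyl-CoA, was 359 and 343 CPM in control and 287 and 259 CPM in *CDYL*-sh. It fell by 0.36 on the log2 scale (SE 0.11, 95% interval -0.58 to -0.14, adjusted p = 0.0176). The call on *ACLY* was lost without control 1 (-0.34, adjusted p = 0.114), without *CDYL*-sh 2 (-0.29, adjusted p = 0.187) and with offsets for GC content and length (-0.20, adjusted p = 0.0611).

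The remaining fatty acid genes gave no call. *FASN*, which builds palmitate, was 818 and 777 CPM against 794 and 678 CPM (log2 fold change -0.12, 95% interval -0.36 to 0.12), and it was the most abundant of the 35 by CPM. The carboxylase *ACACA* was 110 and 93.9 CPM against 124 and 105 CPM (0.16, adjusted p = 0.322). The desaturases of polyunsaturated chains, *FADS1* and *FADS2*, had log2 fold changes of -0.09 and -0.05. They lie on opposite strands of chromosome 11 and share 490 exonic bases, and the ratio of *FADS2* to *FADS1* by CPM was 2.34 and 2.33 in control and 2.34 and 2.49 in *CDYL*-sh.

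Among the 5 regulators, 2 were higher and none lower, with a median log2 fold change of 0.33. *INSIG2* was 5.53 and 4.86 CPM in control and 9.71 and 10.2 CPM in *CDYL*-sh. The groups were well apart and *INSIG2* rose 1.9-fold (log2 fold change 0.93, SE 0.19, 95% interval 0.54 to 1.32, adjusted p = 0.00141). Its paralog *INSIG1*, a classical SREBP target, was 50.3 and 41.9 CPM against 62.1 and 53.8 CPM (0.33, SE 0.12, adjusted p = 0.0555) and passed in 5 of 16 alternatives, including the fit without control 1 (0.46, adjusted p = 0.0388). The ratio of *INSIG2* to *INSIG1* by CPM was 0.11 and 0.116 in control and 0.156 and 0.19 in *CDYL*-sh.

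*SREBF1* was 184 and 153 CPM in control and 232 and 205 CPM in *CDYL*-sh, without overlap. It rose 1.3-fold (log2 fold change 0.37, SE 0.11, 95% interval 0.14 to 0.61, adjusted p = 0.0209), and the call was lost without control 2 (0.25, adjusted p = 0.23) and without *CDYL*-sh 1 (0.27, adjusted p = 0.175). *SREBF1* shares 556 exonic bases with *RAI1* on the opposite strand, and *RAI1* moved the other way, from 117 and 122 CPM to 79.1 and 75.4 CPM (-0.63, SE 0.10, adjusted p = 0.000278). *SREBF2* was 224 and 227 CPM in control and 215 and 210 CPM in *CDYL*-sh (-0.09, 95% interval -0.30 to 0.12, adjusted p = 0.568). By CPM, *SREBF1* over *SREBF2* was 0.821 and 0.674 in control and 1.08 and 0.976 in *CDYL*-sh. *SCAP* was 195 and 206 CPM against 169 and 175 CPM, without overlap (-0.22, SE 0.10, adjusted p = 0.12).

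Of the 4 transport and export genes that were tested, only *ABCA1* passed in edgeR. *ABCA1*, which loads cholesterol onto lipid-poor apolipoprotein and is a classical LXR target, had 20 and 17 counts in control and 81 and 51 counts in *CDYL*-sh. As CPM these were 0.718 and 0.641 against 2.89 and 2.31, and *ABCA1* rose 3.55-fold (log2 fold change 1.83, SE 0.35, 95% interval 1.09 to 2.56, adjusted p = 0.000983). It passed in all 14 alternatives that tested it (1.64 to 1.98), and its FPKM stayed under the filter of 0.5 used for the FPKM fits. In all 4 libraries *ABCA1* remained a low transcript.

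*NPC1*, which passes cholesterol out of lysosomes, was 49.1 and 47.1 CPM against 63.7 and 51.8 CPM (log2 fold change 0.26, SE 0.12, adjusted p = 0.114), and its partner *NPC2* had overlapping groups (-0.08, adjusted p = 0.663). The sterol carrier *STARD4* was 12.6 and 7.80 CPM in control and 14.2 and 13.9 CPM in *CDYL*-sh (0.46, SE 0.19, adjusted p = 0.0877), with a wide gap between the control libraries. *STARD4* went to 0.83 and passed without control 1 (adjusted p = 0.00271), passed with at least 10 counts required in every library (0.45, 0.0444), and was 0.16 without control 2 (0.526).

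**Figure D3:**
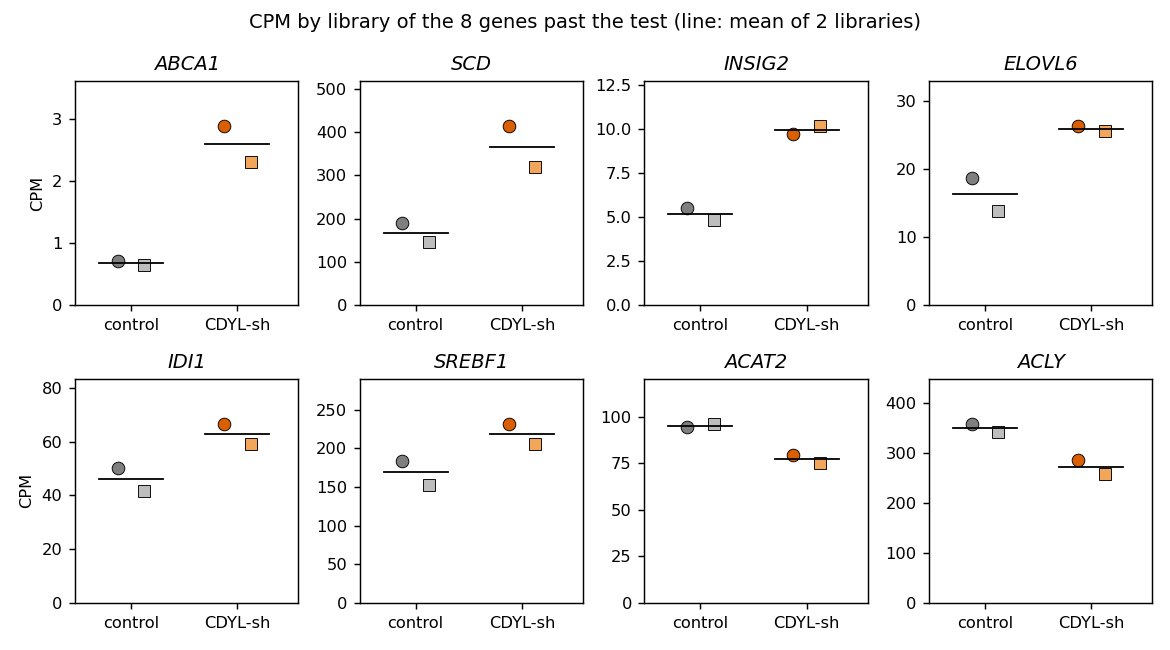
CPM in each library (points) with the mean of 2 libraries (line) for the 8 genes past the test, each panel on its own axis from 0. In every panel both *CDYL*-sh points lie on the same side of both control points, and the fold between group means is largest for *ABCA1* and *SCD*.

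The summed RNA of the sterol and fatty acid branches overlapped between groups. Median log2 fold changes were -0.07 over 18 sterol enzymes and -0.05 over 7 fatty acid genes, and 2 of 18 (11.1%) and 3 of 7 (42.9%) passed the test, against 25.7% of all genes. The difference between these shares was not tested. Summed FPKM of the sterol branch was 1320 and 1284 in control and 1324 and 1286 in *CDYL*-sh. The fatty acid sum was 447.3 and 396.4 against 499.2 and 398.4. Their ratio was 0.339 and 0.309 in control and 0.377 and 0.31 in *CDYL*-sh, so the groups overlapped.

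Within the fatty acid branch the genes moved unequally. *SCD* over *FASN*, by CPM, was 0.231 and 0.188 in control and 0.521 and 0.469 in *CDYL*-sh, while *ACLY* over *FASN* was 0.439 and 0.441 against 0.361 and 0.382. Both ratios had groups that did not overlap, in opposite directions.

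Counts and FPKM gave different pictures for genes whose length behind the FPKM differed between libraries. For *SCD*, count and FPKM implied a length of 5055 to 5058 bases in all 4 libraries. For *ELOVL6* they implied 1359 and 3885 bases in control and 3361 and 3522 in *CDYL*-sh, so that its FPKM was 13.85 and 3.53 in control and 8.02 and 7.19 in *CDYL*-sh. On that scale the groups overlapped, with a limma log2 fold change of 0.07 (pseudocount 1, adjusted p = 0.949). For *NPC1* the implied lengths were 2846 and 2359 against 1761 and 1968 bases, and FPKM went from 17.36 and 19.65 to 36.88 and 26.00 while its log2 fold change from counts was 0.26. *ABCA1* had implied lengths of 3141 and 9001 bases in control and 10175 and 10376 in *CDYL*-sh. Among genes with at least 0.5 FPKM in every library, the longest implied length was over 1.5 times the shortest for 2 of 33 of the set (*NPC1* and *ELOVL6*), against 9.58% of 13862 tested genes. *ABCA1* and *ABCG1*, below that level, also passed this ratio. *INSIG2* also lost its call on FPKM (0.84, adjusted p = 0.0639), as did *IDI1*, *SREBF1*, *ACAT2* and *ACLY*.

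**Figure D4:**
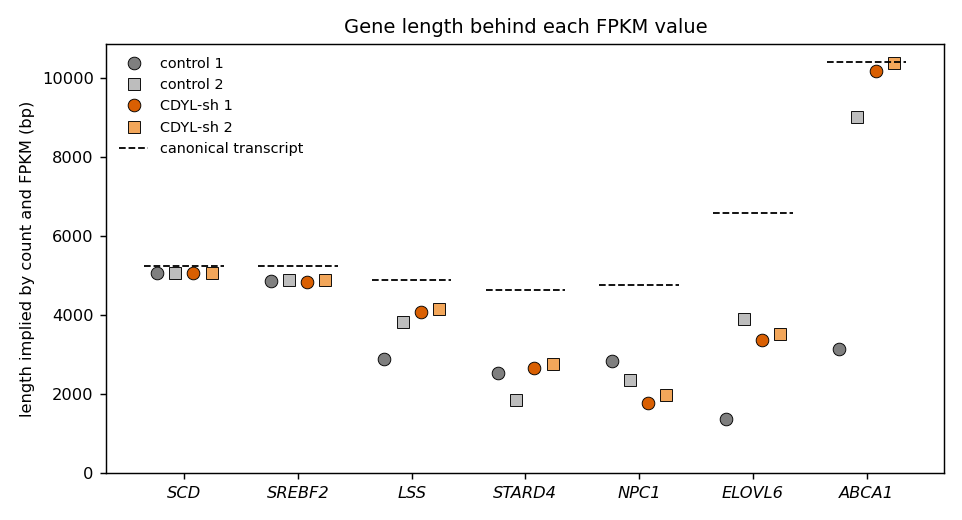
Length in bases implied by count and FPKM in each library (points) and the canonical transcript (dashed line) for 7 genes. *SCD* and *SREBF2* have nearly the same length in all libraries, while control 1 stands far below the others for *ELOVL6* (1359) and *ABCA1* (3141).

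Changes in these libraries went with GC content. Among tested genes under 40% GC, 26.1% were higher and 4.04% lower in *CDYL*-sh, while from 50 to 60% GC 7.87% were higher and 18.1% lower. From 40 to 50% GC the shares were 14.5% and 10.3%. At 60% GC and over they were 11.6% and 12.8%, so the trend did not continue to the highest GC. Of the 35, *HMGCS1*, *IDI1*, *MSMO1*, *SC5D*, *INSIG2* and *STARD4* lay under 40% GC, with a median log2 fold change of 0.39, and 2 of these 6 rose. *SCD* (46.5%), *ABCA1* (45.4%) and *SREBF1* (63.2%) lay elsewhere. With offsets for GC content and length the log2 fold changes of *IDI1* and *INSIG2* were 0.28 and 0.74, and both still passed. *SREBF1* (0.43), *ABCA1* (1.77), *SCD* (1.20), *ELOVL6* (0.53) and *ACAT2* (-0.30) also passed in that fit. *MVD*, *INSIG1* and *NPC1* were then also higher and *CYP51A1* (-0.35) and *SC5D* (-0.37) lower, so 9 genes rose and 3 fell.

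**Figure D5:**
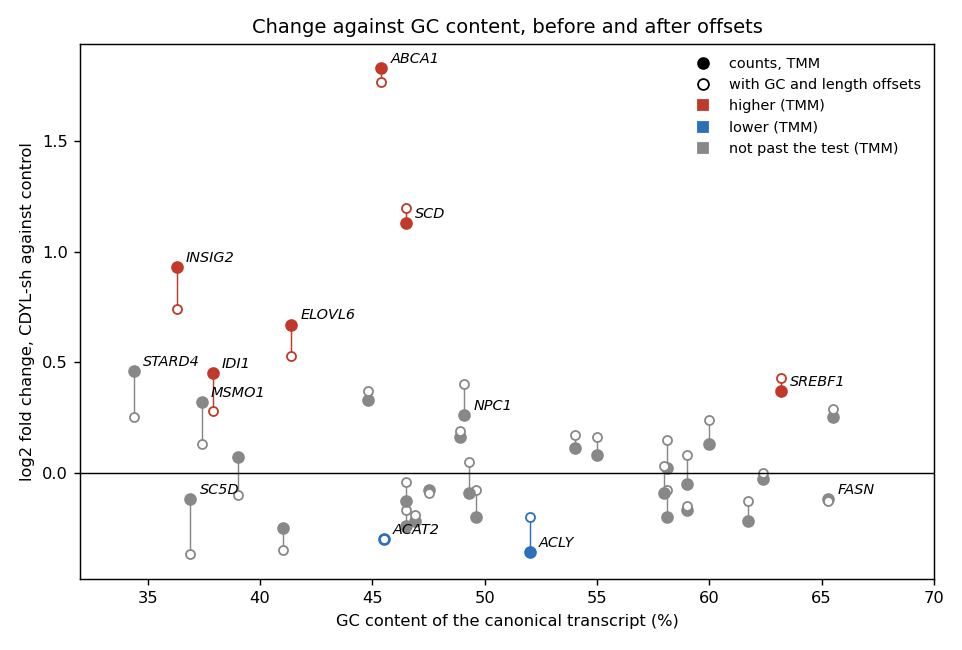
Log2 fold change (*CDYL*-sh against control) against GC content of the canonical transcript for the 34 tested genes, filled points from counts with TMM and open points with GC and length offsets, joined by a line per gene. Open points lie below filled ones for low-GC genes such as *INSIG2* (0.93 to 0.74) and close to them for *SCD* (1.13 and 1.20).

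Libraries of a group also differed along this set. All 7 fatty acid genes were higher in control 1 than in control 2 and higher in *CDYL*-sh 1 than in *CDYL*-sh 2, with median differences of 0.20 and 0.23 log2 units. Over all 34 genes, 22 (64.7%) were higher in the first library of both groups, against 30.2% of all tested genes. Nothing in the labels ties libraries of the same number together.

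Genes around the pathway were counted from 6 further lists, beside the 25.7% of all tested genes called (13.6% higher and 12.1% lower). Of 13 genes for SREBP cleavage and sterol-regulated degradation, 1 was higher, 5 were lower and 7 did not pass (46.2% called against 25.7% of all genes, median log2 fold change -0.20). *SPRING1*, which licenses the protease that makes the first SREBP cut, fell from 74.9 and 66.1 CPM to 50.9 and 48.9 CPM (-0.50, SE 0.11, adjusted p = 0.00329). That protease itself, *MBTPS1*, was 144 and 140 CPM against 112 and 102 CPM (-0.41, SE 0.10, adjusted p = 0.00775). *MBTPS2*, the protease of the following cut, chosen after its values were seen, went the other way, from 14.5 and 14 CPM to 19.9 and 19.3 CPM (0.46, SE 0.14, adjusted p = 0.023). *UFD1* (-0.42) and *UBE2G2* (-0.38), which act in degradation at the endoplasmic reticulum, also fell. *SPRING1* kept its call without each library. Without *CDYL*-sh 2 the calls were lost on *MBTPS1* (-0.34, adjusted p = 0.104), *UFD1* (-0.35, 0.102) and *UBE2G2* (-0.36, 0.081). Without control 1 they were lost on *MBTPS1* (-0.39, adjusted p = 0.0561) and *UBE2G2* (-0.34, 0.0835). *MBTPS2* lost its call without *CDYL*-sh 1 (0.42, adjusted p = 0.18) or *CDYL*-sh 2 (0.48, 0.134).

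Sterol transfer, esterification and LXR genes had 2 of 14 higher and none lower (14.3% called, against 13.6% of all genes higher and 12.1% lower). *VLDLR*, a lipoprotein receptor, rose from 7.32 and 6.26 CPM to 16 and 16 CPM (log2 fold change 1.23, SE 0.17, adjusted p = 4.82e-05). *GRAMD1C*, a sterol transfer protein of membrane contact sites, rose from 0.682 and 0.754 CPM to 2 and 2.36 CPM (1.5, SE 0.36, adjusted p = 0.0051), and lost its call without *CDYL*-sh 2 (1.39, adjusted p = 0.0593). Isoprenoid side branches had 1 of 15 higher and 3 lower, with a median of 0.02 (26.7% called, near the 25.7% of all genes). *GGPS1*, which makes geranylgeranyl diphosphate, rose from 10.3 and 9.68 CPM to 17.6 and 17.8 CPM (0.82, SE 0.15, adjusted p = 0.000728). The ubiquinone genes *COQ2* (-0.68, SE 0.14) and *PDSS1* (-0.62, SE 0.19) fell. *PDSS1* lost its call without control 1 (-0.51, adjusted p = 0.0841) or *CDYL*-sh 2 (-0.48, 0.246).

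Other fatty acid elongation, desaturation and activation genes had 7 of 25 higher and 2 lower (36.0% called against 25.7% of all genes, median 0.19). *ACSL1*, which activates long-chain fatty acids to their CoA esters, rose from 59.2 and 52.6 CPM to 98.2 and 86 CPM (0.72, SE 0.11, adjusted p = 0.000187). *ACSL4*, with a preference for arachidonate, rose by a log2 fold change of 0.87 (SE 0.18), and the dehydratase *HACD4* by 0.82 (SE 0.19). *ACSL3* (0.48) and *ACSL5* (1.29), named after their values were seen, rose too, but *ACSL3* lost its call without *CDYL*-sh 1 (0.36, adjusted p = 0.0901) and *ACSL5* without *CDYL*-sh 2 (1.16, 0.106). *MID1IP1*, which promotes the polymerisation of acetyl-CoA carboxylase, fell from 89.2 and 85.2 CPM to 53.2 and 54.4 CPM (-0.70, SE 0.11, adjusted p = 0.000139).

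Glycerolipid and lipid droplet genes had 2 of 13 higher and 2 lower (30.8% called, near the 25.7% of all genes). *AGPAT1*, an acyltransferase that makes phosphatidic acid, fell from 118 and 123 CPM to 55.9 and 50 CPM (-1.18, SE 0.11, adjusted p = 8.93e-07). *AGPAT3* (-0.36) fell, while *DGAT1* (0.34), which makes triglyceride, and the droplet coat protein *PLIN3* (0.36) rose. *AGPAT3* lost its call without control 1 (-0.39, adjusted p = 0.0573), control 2 (-0.35, 0.0587) or *CDYL*-sh 2 (-0.31, 0.137). *DGAT1* lost its call without control 1 (0.25, adjusted p = 0.225), *CDYL*-sh 1 (0.36, 0.0635) or *CDYL*-sh 2 (0.31, 0.15), and *PLIN3* without control 1 (0.23, 0.294) or *CDYL*-sh 2 (0.25, 0.251). Fatty acid oxidation genes had 4 of 21 higher and 2 lower (28.6% called, near the 25.7% of all genes, median 0.15). *ACADM*, the medium-chain dehydrogenase, rose from 27.6 and 24 CPM to 38.4 and 44.5 CPM (0.68, SE 0.13, adjusted p = 0.00086), and *ECI1*, an enoyl-CoA isomerase, rose by 0.45 (SE 0.12). The thiolases *ACAA1* (-0.46, SE 0.11) and *ACAA2* (-0.88, SE 0.22) fell. *ECI1* lost its call without control 1 (0.32, adjusted p = 0.159) or *CDYL*-sh 2 (0.29, 0.168), and *ACAA2* without *CDYL*-sh 2 (-0.76, 0.089). Of the genes named from these lists, *GGPS1*, *ACSL1*, *MID1IP1* and *AGPAT1* passed in each of the 16 alternatives, and the others were lost at least on FPKM.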

How the data were processed

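RNA-seq libraries were made from Ishikawa cells with the TruSeq RNA kit and sequenced as paired-end reads. As the study's methods and the submitters' processing notes state, reads were aligned to GRCh38.p10 with TopHat, and the notes also name RSEM and edgeR. The deposited table gives each gene an expected count, an estimate that need not be whole, and an FPKM, which the authors normalized for length and depth. The annotation release and the use of strand in counting are not given in the sources used here. Symbols were found for 98.1% of 58522 identifiers. Another 289 were assembled loci.

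Expected counts were rounded, filtered with filterByExpr (16158 genes kept), normalized by TMM and tested with the quasi-likelihood test of edgeR 4.0.16 in R 4.3.3, with group as the only term and a prior count of 2. Adjusted p-values are Benjamini-Hochberg over all genes tested, and come from this test unless limma is named. Intervals are 95% intervals of single genes, unadjusted. FPKM were tested as log2(FPKM + 1) or log2(FPKM + 0.1) with limma 3.58.1 in genes with a mean of at least 0.5. A pseudocount of 1 shrinks the fold changes of low genes, and 0.1 does so less. For *INSIG2* the log2 fold changes were 0.84 and 1.07, against 0.93 from counts. Other alternatives were RLE, upper quartile and library-size scaling, no filter, at least 10 counts in every library, counts not rounded, DESeq2 1.42.0, limma-voom, a replicate block, GC and length offsets, and leaving out each library, where the lone library is assumed to vary like the others. Positions, overlaps, GC content and lengths came from GENCODE 44. The implied length is the length at which a gene's count and the library's total count give its FPKM.

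The 35 genes and the lists were chosen with earlier results of these data known. The naming rule took all 35 genes and up to 4 genes past the test from each further list, by adjusted p. Some genes of these pathways are not reported here.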

Additional observations from a re-analysis of the deposited data

How the results depend on the processing

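Genes called numbered 4157, against 461 and 507 with limma on FPKM with pseudocounts of 1 and 0.1, and 2082 to 4006 without a library (2082 without *CDYL*-sh 2). Of the 35 genes, those called higher numbered 6, against 1 and 1 on FPKM and 4 to 8 without a library. Those called lower numbered 2, against 1 with upper quartile scaling, 1 with library size only, 0 and 0 on FPKM and 0 to 2 without a library. The replicate block gave 5393 genes, with 10 of the 35 higher (*MVD*, *MSMO1*, *INSIG1* and *NPC1* gained) and 6 lower (*FDFT1*, *LSS*, *CYP51A1* and *SCAP* gained). The labels give only shared numbers. Deviations of same-numbered libraries correlated at 0.0677 over all genes, 0.52 over the tested genes of the 35 and 0.71 over the sterol branch, and the numbers were not taken as pairs. Branch medians stayed within the replicate spread, from -0.12 to 0.01 for sterol and -0.20 to 0.08 for fatty acid genes.

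Direction changed for these genes, none past the test. Offsets for GC and length gave *HMGCS1* -0.10, *SREBF2* 0.03, *FADS1* 0.05 and *FADS2* 0.08. Leaving out 1 library gave ranges of -0.17 to 0.34 for *HMGCS1* (-0.03 without *CDYL*-sh 1), -0.30 to 0.04 for *SQLE*, -0.19 to 0.13 for *TM7SF2*, -0.53 to 0.01 for *HSD17B7*, -0.07 to 0.09 for *DHCR7*, -0.22 to 0.07 for *NPC2*, -0.28 to 0.07 for *FADS1* and -0.20 to 0.07 for *FADS2*. On FPKM, *TM7SF2* was 0.08 and 0.08 and *FASN* 0.06 and 0.06. The cause of these changes was not tested. With 2 libraries a group, changes of the size of many of the sterol enzymes could not be told from the spread, and counts of *ABCA1* and *ABCG1* were low.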
